A study of Mus musculus with 21 samples.

Results

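This comparison set 2 sizes of amorphous silica particle against each other at their mid doses in RAW 264.7, a line of mouse tumour cells that behave like macrophages. Cells given 10 nm silica at 20 µg/ml (3 arrays) were compared with cells given 500 nm silica at 500 µg/ml (3 arrays), both for 2 h in serum-free medium, so that 6 of the 21 arrays of the series entered the contrast. The arrays were chosen by their titles alone, and no measured value was used. Each array measured messenger RNA as log2 intensity on 22626 probe sets, short sets of oligonucleotides that each read part of 1 transcript, after 64 control probe sets were set aside. Untreated cells (3 arrays) and the low and high doses of each size (3 arrays each) served only to place the difference. These were 5 and 50 µg/ml of 10 nm silica and 250 and 1000 µg/ml of 500 nm silica.

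The mid doses differed in more than size. The 500 nm dose was 25 times the 10 nm dose by mass. For equally dense solid spheres the nominal surface area, which is dose divided by diameter, was 2 times as high with 10 nm silica, and the nominal number of particles 5000 times. Size, mass, area and number therefore changed together and cannot be told apart in this contrast. Nothing in the labels says that a group's 3 arrays are 3 cultures, so p-values measure a spread between arrays that may be only technical. Whether the untreated cells were also without serum is not given. Of 10 macrophage markers measured, 0 passed the test between the sizes. Csf1r, the receptor that macrophages need for growth, was the brightest of them at 13.30, and Cd68, Lyz2 and Cd14 lay in the top 2% of probe sets, while the integrin gene Itgam was dim at 6.02 (log2 means over 21 arrays). Marker lists of 7 other cell types had mean levels from 3.73 to 5.07 on the 6 arrays, and Ocstamp, an osteoclast marker, was the member that passed. Replicate 3 had the lowest SD of its values in 7 of 7 groups. At the mid doses that SD was 2.54 to 2.57 in replicate 3 and 2.60 to 2.67 in replicates 1 and 2, for both sizes, and its part in the results was tested by leaving arrays out. Between control probe sets at opposite ends of a transcript, an index that rises as RNA degrades, the log2 difference was 0.17 to 0.47 with 10 nm and 0.14 to 0.32 with 500 nm silica. Untreated replicate 3 had the highest value of the 21 arrays, 1.15, against 0.17 on the other untreated arrays, and this index's part in the results was not tested.

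Macrophages bind and engulf particles, and the contact and uptake start signalling through calcium, MAP kinases and NF-kB. Immediate early genes are the first genes switched on by such signals, since their promoters are ready before the stimulus and no new protein has to be made. Many of them encode transcription factors of the AP-1, EGR, KLF and NR4A families, and others encode phosphatases and RNA-binding proteins that shut the response down again. The integrated stress response is another branch, in which a block of general translation lets the factor ATF4 be made, which then acts on genes of amino acid supply such as the cystine transporter gene Slc7a11 and the gene Ddit3, which encodes CHOP.

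Promoters of 5 genes from the 2 sides of the contrast are shown here. The genes were chosen by hand together with the motif marked in each, and each window is at a start that holds it. Other genes lay further out, such as Rhob above and Slc40a1 below. Nr4a1, Nr4a2, Klf2 and Egr2 were among the genes furthest above with 10 nm silica, and Slc7a11 was among those furthest below. Each runs 5′ to 3′ on the gene's strand from 250 bases before to 50 bases after a RefSeq transcription start in the GRCm38.p6 build. In the first 4, capitals mark TGACG on either strand, the core of the cyclic AMP response element, to which CREB and ATF proteins can bind. In Slc7a11 capitals mark TGATGNAA on either strand, the core of the element bound by CHOP and ATF4 with C/EBP partners. The positions are chr15:101266596-101266895 (plus strand) for Nr4a1, chr2:57123954-57124253 (minus strand) for Nr4a2, chr8:72318812-72319111 (plus strand) for Klf2, chr10:67537619-67537918 (plus strand) for Egr2 and chr3:50443564-50443863 (minus strand) for Slc7a11.
Nr4a1: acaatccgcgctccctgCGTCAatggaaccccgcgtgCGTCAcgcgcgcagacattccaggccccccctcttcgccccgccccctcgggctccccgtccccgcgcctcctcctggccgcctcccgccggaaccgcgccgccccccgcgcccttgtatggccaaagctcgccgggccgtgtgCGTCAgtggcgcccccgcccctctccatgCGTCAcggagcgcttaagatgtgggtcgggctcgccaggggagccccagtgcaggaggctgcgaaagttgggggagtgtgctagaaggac
Nr4a2: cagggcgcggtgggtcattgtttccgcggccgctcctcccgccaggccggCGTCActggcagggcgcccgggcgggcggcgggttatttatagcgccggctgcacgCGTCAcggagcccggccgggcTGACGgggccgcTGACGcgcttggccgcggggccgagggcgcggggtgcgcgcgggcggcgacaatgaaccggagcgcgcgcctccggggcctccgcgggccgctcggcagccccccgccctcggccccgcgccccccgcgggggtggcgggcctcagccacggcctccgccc
Klf2: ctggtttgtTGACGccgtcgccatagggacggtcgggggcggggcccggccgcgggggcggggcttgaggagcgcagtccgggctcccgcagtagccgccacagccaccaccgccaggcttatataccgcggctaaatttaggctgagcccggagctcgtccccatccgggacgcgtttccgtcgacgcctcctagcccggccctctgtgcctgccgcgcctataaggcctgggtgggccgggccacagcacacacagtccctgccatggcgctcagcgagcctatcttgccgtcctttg
Egr2: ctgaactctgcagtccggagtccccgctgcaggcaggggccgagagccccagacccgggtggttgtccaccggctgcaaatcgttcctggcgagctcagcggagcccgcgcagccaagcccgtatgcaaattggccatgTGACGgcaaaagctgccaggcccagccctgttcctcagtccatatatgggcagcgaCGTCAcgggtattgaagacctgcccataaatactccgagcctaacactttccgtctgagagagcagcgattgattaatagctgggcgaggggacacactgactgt
Slc7a11: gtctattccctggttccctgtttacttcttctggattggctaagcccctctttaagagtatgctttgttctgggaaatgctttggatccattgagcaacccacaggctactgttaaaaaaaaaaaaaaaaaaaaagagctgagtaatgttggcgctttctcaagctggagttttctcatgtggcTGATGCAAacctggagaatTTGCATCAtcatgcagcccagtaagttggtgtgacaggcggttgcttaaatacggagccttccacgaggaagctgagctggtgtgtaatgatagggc

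TGACG stood 4 times in the Nr4a1 window, 4 times in that of Nr4a2, 1 time in that of Klf2 and 2 times in that of Egr2, for which 3 of 5 listed starts held it. TGATGNAA stood 2 times in the Slc7a11 window. Of all 32851 promoter windows of this length, 20.8% held TGACG and 3.97% held TGATGNAA. The motifs were also counted over the 36 higher and 23 lower called genes of the naming rule, which is given with the processing. Genes named outside that rule were not counted. Of those with a listed promoter, 14 of 31 higher and 8 of 17 lower genes held TGACG at a start. TGATGNAA was held by 0 of 31 and 1 of 17, the 1 being Slc7a11. Among all 27025 genes with a listed promoter the shares were 23% and 4.51%. Both motifs open with TGA, and neither contains the other. A match describes the letters only.

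Between the mid doses, 492 of 22626 probe sets (2.17%) passed limma's test at a Benjamini-Hochberg adjusted p under 0.05. Of these, 294 (1.3%) were higher and 198 (0.875%) lower with 10 nm silica, and they stood for 213 and 172 named genes. The difference was at least 2-fold in 82 of the higher and 13 of the lower probe sets. The higher side held transcription factor genes, chemokine genes and the small GTPase gene Rhob. Differences reached 10.8-fold on a probe set of Nr4a2 and 10.2-fold on that of Rhob. The lower side was shallower and was led by the iron exporter gene Slc40a1 at 3.1-fold. All 492 had 3 arrays of one size beyond the 3 of the other, as did 16.1% of all probe sets. The median difference over all probe sets was -0.0066 log2. With 1 array left out the count was 281 without 10 nm replicate 1, 322 without replicate 2 and 331 without replicate 3, and 327, 300 and 310 without 500 nm replicates 1, 2 and 3. The number of 2-fold differences, 95, ranged from 88 to 96 over those 6 fits. With 1 probe set per gene, the scale of the gene lists, 1.23% of 12393 genes were higher and 1.11% lower, around a median of -0.0087. Together these were 2.35%, the share beside which each list count below is to be read.

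**Figure D1:**
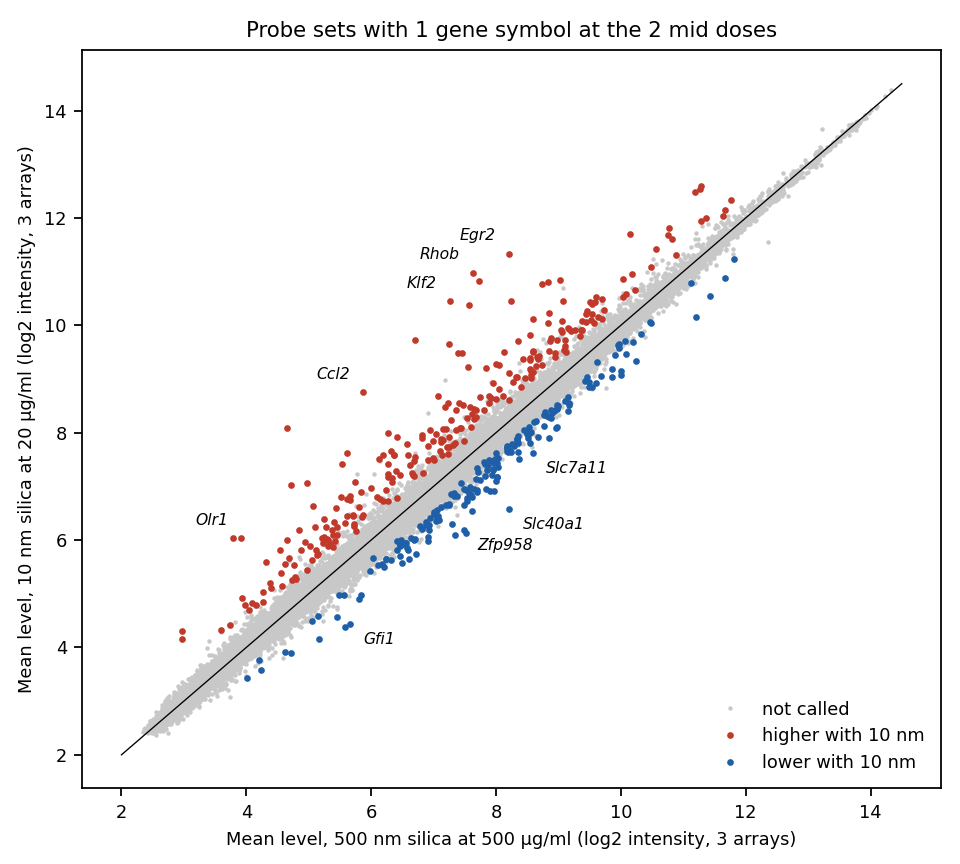
Mean log2 intensity with 500 nm silica at 500 µg/ml (x axis) and with 10 nm silica at 20 µg/ml (y axis), 3 arrays each, for probe sets with 1 gene symbol. Red and blue points passed the test (257 higher and 188 lower with 10 nm), grey points did not, and the line marks equal levels. The red points reach further from the line than the blue ones.

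By the brightest probe set of each gene, the 4 furthest above were immediate early genes. Rhob, whose product acts on actin and vesicle traffic, read 11.30, 11.12 and 10.53 on 10 nm replicates 1, 2 and 3, against 7.93, 7.82 and 7.13 on the 500 nm arrays and 5.86, 5.86 and 5.51 in untreated cells. The sizes did not overlap, and both lay above the untreated arrays. The difference was 3.36 ± 0.28 log2 (SE, n = 3 arrays each), or 10.2-fold, with a limma adjusted p of 4.05e-07. Klf2, a transcription factor that restrains macrophage activation, read 10.22, 10.53 and 10.60 with 10 nm silica. On the 500 nm arrays it read 7.34, 7.10 and 7.32, and on the untreated ones 6.22, 6.28 and 5.94. All 3 groups were apart, and the sizes differed 9.14-fold (3.19 ± 0.13 log2, adjusted p = 4.02e-11).

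Egr2, a zinc finger transcription factor, split differently. Its levels were 11.22, 11.29 and 11.50 with 10 nm silica and 8.25, 8.14 and 8.25 with 500 nm silica. In untreated cells they were 7.89, 7.76 and 8.50, so that the 500 nm arrays lay within the untreated range. The sizes differed by 3.12 ± 0.15 log2 (8.71-fold, adjusted p = 3.77e-10), and a further probe set of Egr2 gave 2.80 ± 0.18. Nr4a1, an orphan nuclear receptor and early response factor, stood at 10.89, 11.08 and 10.53 with 10 nm silica, at 7.69, 7.66 and 7.82 with 500 nm silica and at 7.51, 7.42 and 7.13 untreated. The 500 nm arrays were thus close above the untreated ones, and the sizes differed 8.64-fold (3.11 ± 0.18 log2, adjusted p = 5.03e-09). Against untreated cells, 500 nm silica gave 0.17 ± 0.15 log2 for Egr2 and 0.37 ± 0.18 for Nr4a1, neither of which passed (adjusted p = 0.802 and 0.466).

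The relative Nr4a2 had the same layout at a lower level. It read 7.04, 7.66 and 7.58 with 10 nm silica, 5.48, 5.49 and 5.64 with 500 nm silica and 5.27, 5.33 and 5.13 untreated. The sizes differed by 1.89 ± 0.13 log2 (3.7-fold, adjusted p = 4.55e-08) on this probe set and by 3.43 ± 0.13 (adjusted p = 2.73e-11) on the other. Nr4a3, the third of the family, gave 0.26 ± 0.19 (adjusted p = 0.91). Arc, known from neurons as an activity-regulated cytoskeleton gene, stood at 7.43, 7.69 and 7.75 with 10 nm silica against 5.69, 5.67 and 5.50. That was a 4.02-fold difference (2.01 ± 0.14 log2, adjusted p = 5.01e-08), with the untreated arrays at 5.77, 5.74 and 6.18, all above the 500 nm arrays.

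**Figure D2:**
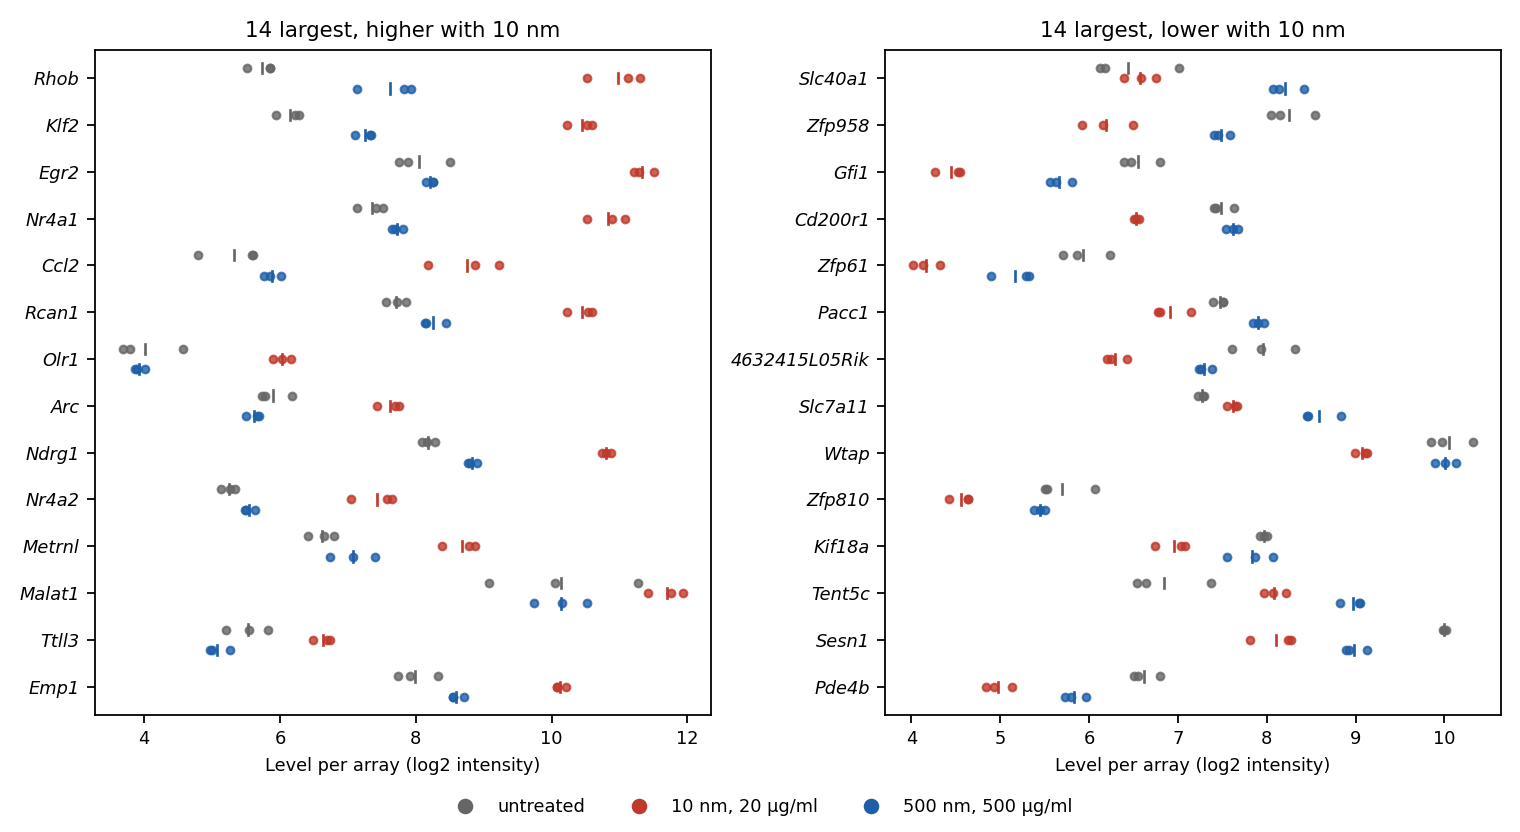
Log2 intensity on each array (x axis) for the 14 genes furthest above (left) and the 14 furthest below (right) with 10 nm silica among those that passed the test. Points are single arrays of untreated cells (grey), 10 nm silica at 20 µg/ml (red) and 500 nm silica at 500 µg/ml (blue), and ticks are group means. On the left the blue points mostly lie near the grey ones. On the right the red points of most genes lie below both, while those of Slc40a1 and Slc7a11 lie near the grey ones and those of Tent5c lie between grey and blue.

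Of the 31 immediate early genes measured, 20 were higher with 10 nm silica and 0 lower, with a median difference of 0.88 log2. The share of all genes called higher was 1.23%. The count was 17 to 19 with any 1 of the 6 arrays left out, and the median 0.83 to 0.90 under the other scalings and without replicate 3. All 31 differences were positive, from 0.018 for Srf to 3.36 for Rhob. The AP-1 genes were among them. Fos read 9.32, 9.42 and 9.77 with 10 nm and 8.10, 8.12 and 8.18 with 500 nm silica (1.37 ± 0.19 log2, adjusted p = 0.00039), and Junb read 10.18, 10.18 and 9.75 against 8.85, 9.05 and 8.60 (1.2 ± 0.22, adjusted p = 0.00377). Jun, the main partner of Fos, differed less, with 10.95, 10.98 and 10.95 against 10.23, 10.24 and 10.08 (0.78 ± 0.12, adjusted p = 0.00112). For all 3 the sizes were apart, and both sizes lay above the untreated arrays.

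Egr1, Fosl1 and Ier2 gave 1.32 ± 0.17, 1.28 ± 0.12 and 1.39 ± 0.26 log2. Klf4, a relative of Klf2, was laid out differently. It read 7.35, 7.44 and 7.46 with 10 nm silica and 7.10, 7.66 and 7.51 untreated, but 6.19, 6.33 and 6.27 with 500 nm silica. The 10 nm arrays thus overlapped the untreated ones and the 500 nm arrays lay below both (1.15 ± 0.17, adjusted p = 0.000528). The 11 members that did not pass included Plk2 (0.35 ± 0.26, adjusted p = 0.922), Maff (0.23 ± 0.15, adjusted p = 0.86) and Myc (0.21 ± 0.14, adjusted p = 0.867). Plk2, a kinase gene, stood 3.67 log2 above untreated cells with 10 nm and 3.33 with 500 nm silica. Fosl2 (0.55 ± 0.13) lost its call without 4 of the 6 arrays (10 nm replicates 1 and 3 and 500 nm replicates 2 and 3, adjusted p = 0.0777 to 0.178). Genes that the naming rule did not take, from Fos to Myc here and in the lists that follow, were named after their values were seen.

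Genes that damp kinase signals were higher with 10 nm silica by smaller amounts. Of the 17 MAP kinase feedback genes, 7 were higher with 10 nm silica and 0 lower (median 0.22), beside 1.23% and 1.11% of all genes. The higher count was 5 to 7 with 1 array left out. Dusp1 and Dusp2 also stood among the immediate early genes. Dusp1, a phosphatase that switches off MAP kinases, read 10.84, 10.90 and 10.86 with 10 nm and 10.07, 10.03 and 9.98 with 500 nm silica, against 6.84, 6.74 and 6.86 untreated. Its difference of 0.84 ± 0.09 log2 (1.79-fold, adjusted p = 2.6e-05) was small beside its rise over untreated cells, 4.05 with 10 nm and 3.21 with 500 nm silica. Rgs16, which speeds the turning off of G proteins, stood at 7.19, 7.09 and 7.55 against 6.27, 6.28 and 6.62 (0.89 ± 0.15, adjusted p = 0.00188). Other probe sets of Rgs16 gave 1.29 ± 0.27 (adjusted p = 0.0125) and 0.61 ± 0.21, which did not pass (adjusted p = 0.195). Dusp2 gave 0.81 ± 0.17 (adjusted p = 0.0123). That call ended without 10 nm replicate 2 or 3 or 500 nm replicate 2 (adjusted p = 0.051 to 0.0837). Rcan1, which inhibits the calcium-dependent phosphatase calcineurin, was outside this list. It read 10.60, 10.53 and 10.23 against 8.14, 8.45 and 8.16, a 4.62-fold difference (2.21 ± 0.18, adjusted p = 3.04e-07). A further probe set of Rcan1 gave 1.81 ± 0.63 and did not pass (adjusted p = 0.218).

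Among 32 genes of messenger RNA decay and transcription regulators with short-lived messenger RNAs, 9 were higher and 2 lower with 10 nm silica (median 0.26). The higher count fell to 3 without 10 nm replicate 1, to 5 without 10 nm replicate 2 and 500 nm replicates 1 and 2, each in turn, and to 4 without 500 nm replicate 3. Sertad1, a cofactor of cell cycle transcription, read 9.85, 9.90 and 9.73 against 8.47, 8.68 and 8.50 (1.27 ± 0.10, adjusted p = 3.03e-07). Nfil3, a bZIP repressor, read 8.66, 8.61 and 8.39 against 7.29, 7.61 and 6.78 (1.33 ± 0.24, adjusted p = 0.00375). Neither gene's sizes overlapped. Gfi1, a zinc finger repressor of myeloid genes, went the other way. It read 4.52, 4.55 and 4.27 with 10 nm silica, 5.56, 5.81 and 5.63 with 500 nm silica and 6.39, 6.47 and 6.80 untreated, so both sizes lay below untreated cells and 10 nm silica lay lower (-1.22 ± 0.16, adjusted p = 0.000222). The other lower member was Ifrd1 (-0.79 ± 0.16). It lost its call without 10 nm replicate 3 or 500 nm replicate 2 (adjusted p = 0.0703 and 0.0555), which leaves 1 lower gene.

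**Figure D3:**
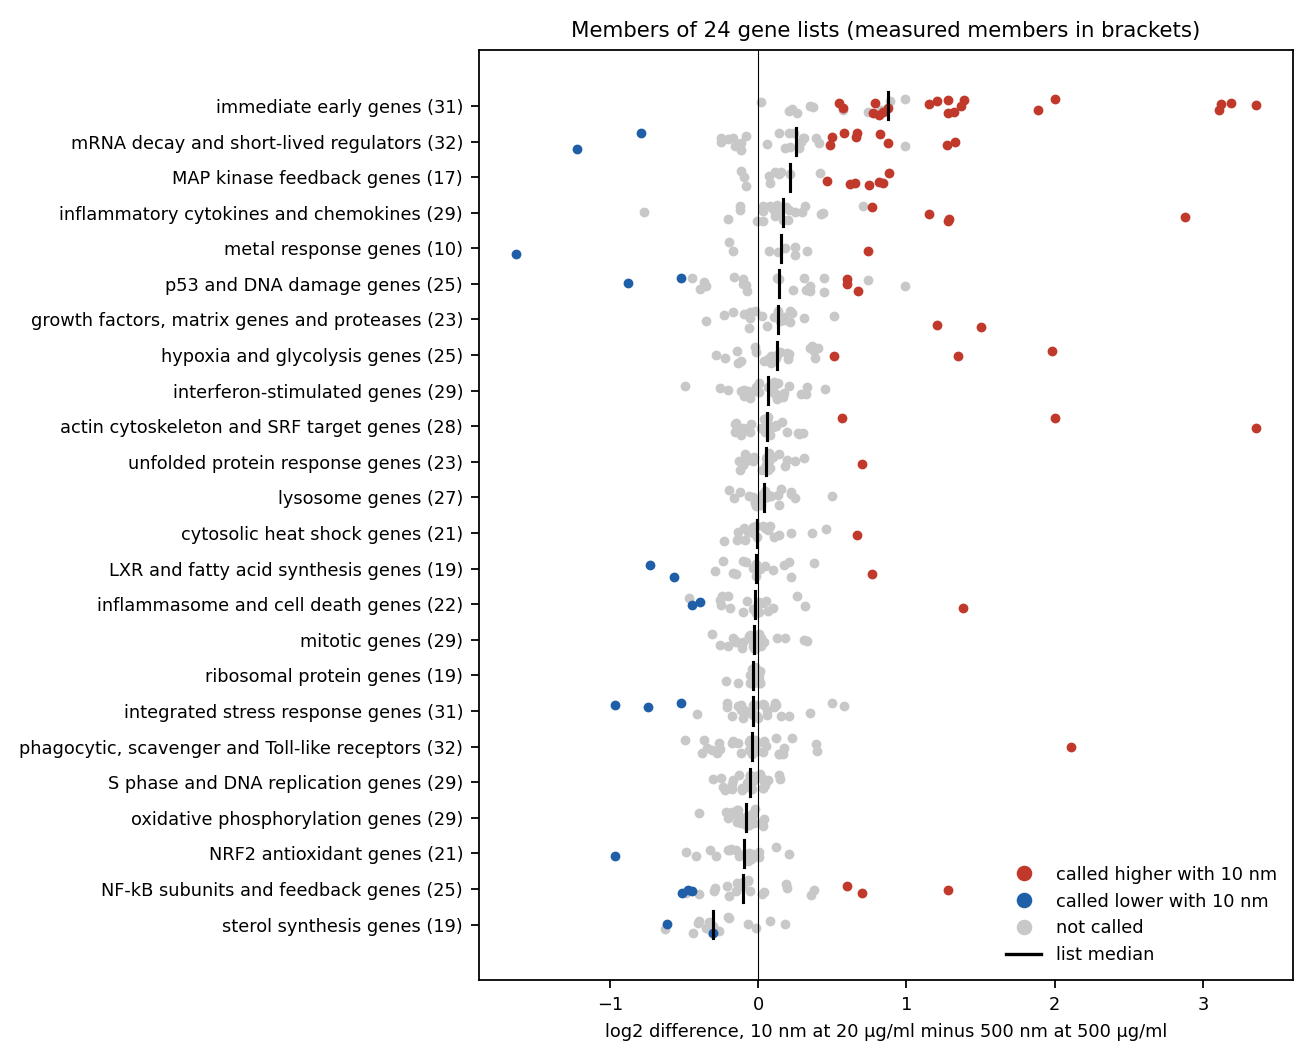
Log2 difference between 10 nm silica at 20 µg/ml and 500 nm silica at 500 µg/ml (x axis) for each measured member of 24 gene lists, ordered by their medians (black ticks). Red and blue points passed the test. The immediate early genes, with 20 red points, have a median of 0.88, and the sterol synthesis genes, with 2 blue points, have the lowest median at -0.31.

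Of 29 inflammatory cytokine and chemokine genes, 5 were higher with 10 nm silica and 0 lower (median 0.17), and 24 of the 29 differences were positive. Ccl2, which draws monocytes, read 9.22, 8.87 and 8.17 with 10 nm silica, 5.85, 6.02 and 5.77 with 500 nm silica and 5.59, 5.60 and 4.79 untreated. The 10 nm arrays stood alone, 7.35-fold above 500 nm (2.88 ± 0.30 log2, adjusted p = 1.2e-05). The 500 nm difference from untreated cells, 0.55 ± 0.30, did not pass (adjusted p = 0.551). Ccl4, a chemokine for natural killer cells and monocytes, stood at 12.64, 12.45 and 12.35 against 11.35, 11.10 and 11.13, with untreated arrays at 8.92, 9.03 and 9.05. It was thus raised by both sizes, and the sizes differed 2.44-fold (1.29 ± 0.12, adjusted p = 2.64e-06). Lif, a cytokine of the interleukin 6 family, was dim, at 5.84, 5.83 and 5.76 against 4.44, 4.47 and 4.68 (1.28 ± 0.16, adjusted p = 9.85e-05). A still dimmer probe set of Lif gave -0.0007 ± 0.12.

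The other 2 higher members did not keep their calls in every fit with 1 array left out. The interleukin 1 receptor antagonist gene Il1rn gave 1.15 ± 0.30 (adjusted p = 0.0499). It kept its call only without 10 nm replicate 3, and the other 5 fits gave adjusted p = 0.0617 to 0.247. Ccl7, a neighbour of Ccl2 in function, gave 0.77 ± 0.16 and lost its call without 10 nm replicate 1 or 500 nm replicate 2 or 3 (adjusted p = 0.0607 to 0.0734), each of which left 3 higher members in the list. Other inflammatory genes did not pass between the sizes. The neutrophil chemokine gene Cxcl2 rose 4.98 log2 over untreated cells with 10 nm and 4.78 with 500 nm silica and differed between them by 0.21 ± 0.13 (adjusted p = 0.801). Tnf, which encodes tumour necrosis factor, gave 0.30 ± 0.12 (adjusted p = 0.327), Il1b 0.03 ± 0.20 and Il6 -0.01 ± 0.14 (both adjusted p = 1.0). Cxcl10, an interferon-driven chemokine gene, had the lowest value, -0.77 ± 0.21 (adjusted p = 0.0771).

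Of the NF-kB subunit and feedback genes, 3 of 25 were higher and 3 lower (median -0.10). Ier3, an anti-apoptotic early response gene, read 12.58, 12.69 and 12.36 with 10 nm and 11.25, 11.35 and 11.19 with 500 nm silica (1.28 ± 0.14, adjusted p = 1.2e-05). Gadd45b, a stress gene that acts on MAP kinase kinases, read 9.16, 9.27 and 9.28 against 8.61, 8.65 and 8.64 (0.60 ± 0.12, adjusted p = 0.00833). Without replicate 3 of every group that call was lost (0.58, adjusted p = 0.0583). Further probe sets of Gadd45b gave 0.41 ± 0.10 (adjusted p = 0.0449) and, at a dim level, 0.09 ± 0.25, which did not pass. Ptgs2, the inducible cyclooxygenase that starts prostaglandin synthesis, gave 0.70 ± 0.15 (adjusted p = 0.0122) and lost its call without 10 nm replicate 1 or 3 or 500 nm replicate 1 (adjusted p = 0.0545 to 0.0663). Its dimmer probe set gave 0.65 ± 0.37 and did not pass (adjusted p = 0.727). The dendritic cell activation marker Cd83 was lower with 10 nm silica, at 9.60, 9.76 and 9.71 against 10.23, 10.17 and 10.21 (-0.51 ± 0.08, adjusted p = 0.00149). Its untreated arrays, at 9.67, 9.55 and 9.75, overlapped the 10 nm ones. The lower members Birc3 and Zc3h12a each lost their calls without 4 of the 6 arrays, which left 1 or 2 lower members. For Birc3, which inhibits cell death, these were 10 nm replicates 1 and 3 and 500 nm replicates 1 and 2 (adjusted p = 0.0736 to 0.151). For Zc3h12a, which degrades cytokine messenger RNAs, they were 10 nm replicates 1 and 3 and 500 nm replicates 2 and 3 (adjusted p = 0.111 to 0.153). A dim probe set of Birc3 gave 0.24 ± 0.18 (adjusted p = 0.924).

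The receptor list and the hypoxia list each held genes that were higher with 10 nm silica. Olr1, a scavenger receptor for oxidised low density lipoprotein, read 5.90, 6.04 and 6.16 with 10 nm silica, 4.02, 3.86 and 3.89 with 500 nm silica and 3.69, 3.79 and 4.58 untreated. It was the 1 called member of 32 phagocytic, scavenger and Toll-like receptor genes, at 4.32-fold (2.11 ± 0.19, adjusted p = 1.11e-06). Without the dimmest 33.3% of probe sets Olr1 was not tested. Ndrg1, a stress gene raised by low oxygen and metals, read 10.75, 10.87 and 10.80 against 8.81, 8.77 and 8.91 (1.98 ± 0.11, adjusted p = 3.64e-09), and its 4 other probe sets gave 1.67 to 2.41. Hilpda, a lipid droplet protein that slows fat breakdown, read 9.89, 9.89 and 9.34 against 8.27, 8.54 and 8.26 (1.35 ± 0.26, adjusted p = 0.00625). Plin2, which coats lipid droplets, read 9.99, 9.97 and 9.84 against 9.21, 9.18 and 9.11 (0.77 ± 0.09, adjusted p = 3.59e-05).

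Of 25 hypoxia and glycolysis genes, 3 were higher and 0 lower (median 0.12). The third, the histone demethylase gene Kdm3a (0.51 ± 0.12, adjusted p = 0.031), kept its call only without 10 nm replicate 3, and the other 5 fits gave adjusted p = 0.0778 to 0.194. Of 28 actin and SRF target genes 3 were higher, namely Rhob, Arc and the GTPase gene Rhoc (0.57 ± 0.11, adjusted p = 0.00619), and 0 were lower. On a dimmer probe set Rhoc gave 0.67 ± 0.49 and did not pass (adjusted p = 0.906). Of 23 growth factor, matrix and protease genes, 2 were higher and 0 lower. Hbegf, a ligand of the EGF receptor, read 7.76, 8.04 and 7.95 against 6.45, 6.22 and 6.56 (1.5 ± 0.19, adjusted p = 8.22e-05), above untreated arrays at 5.13, 5.30 and 5.37. Plaur, the urokinase receptor, gave 1.21 ± 0.31 (adjusted p = 0.0477). Its call held only without 10 nm replicate 3 or 500 nm replicate 2, and the other 4 fits gave adjusted p = 0.195 to 0.279. Without those arrays 1 member was higher.

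Emp1, a membrane protein gene, read 10.22, 10.08 and 10.07 against 8.55, 8.70 and 8.55 (1.52 ± 0.14, adjusted p = 2.29e-06). Metrnl, which encodes a secreted factor, read 8.78, 8.88 and 8.38 against 7.08, 7.41 and 6.74 (1.61 ± 0.20, adjusted p = 7.81e-05). Ttll3, a tubulin glycylase, read 6.49, 6.73 and 6.69 against 4.96, 5.00 and 5.26 (1.56 ± 0.18, adjusted p = 4.95e-05). In these 3 the sizes did not overlap, and for Ttll3 the untreated arrays (5.21, 5.82 and 5.55) reached into the range of the 500 nm ones. A dim probe set of Ttll3 gave 0.11 ± 0.19. Malat1, a nuclear non-coding RNA, read 11.42, 11.76 and 11.93 against 10.15, 9.74 and 10.52 (1.57 ± 0.35, adjusted p = 0.0203). Its untreated arrays spread from 9.07 to 11.27, and the call ended without 10 nm replicate 2 or 3 or 500 nm replicate 1 or 2 (adjusted p = 0.071 to 0.12). Other probe sets of Malat1 gave 1.81 and 1.14, which passed, and 1.62 and 0.69, which did not (adjusted p = 0.116 and 0.213).

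Of 22 inflammasome and cell death genes, 1 was higher and 2 were lower (median -0.021). Bcl2l11, which encodes the apoptosis promoter Bim, read 10.30, 10.49 and 10.56 with 10 nm and 9.0, 8.95 and 9.27 with 500 nm silica (1.38 ± 0.20, adjusted p = 0.000505). Its other 4 probe sets gave 0.84 to 1.22, and that at 0.84 did not pass (adjusted p = 0.337). Bid (-0.39 ± 0.10) lost its call with any 1 of the 6 arrays left out (adjusted p = 0.0793 to 0.16), and the other lower member was Birc3. With 1 array left out the list had 0 or 1 lower member. Of the 25 p53 and DNA damage genes, 3 were higher and 2 lower, the latter Sesn1 and Ddit4. Cdkn1a, which encodes the cell cycle inhibitor p21, read 10.98, 11.16 and 11.12 against 10.59, 10.37 and 10.49 (0.60 ± 0.09, adjusted p = 0.00083). On a dimmer probe set Cdkn1a gave 0.55 ± 0.42 and did not pass (adjusted p = 0.92). Bbc3, a further apoptosis promoter, gave 0.68 ± 0.12 (adjusted p = 0.00377), and Gadd45b was the third. Sesn1, a sestrin that restrains growth signalling, read 8.24, 8.27 and 7.82 against 8.93, 9.13 and 8.89 (-0.88 ± 0.14, adjusted p = 0.00154). Both sizes lay below its untreated arrays at 9.99, 9.98 and 10.02.

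Cochaperone and metal binding genes passed singly, where 2.35% of all 12393 genes passed in either direction. Mt2, a metallothionein that binds zinc and copper, was the 1 higher member of 10 metal response genes (0.74 ± 0.15, adjusted p = 0.00953). It lost its call without 10 nm replicate 2 or 500 nm replicate 2 (adjusted p = 0.063 and 0.0559). Dnajb1, a cochaperone, was the 1 of 21 cytosolic heat shock genes (0.67 ± 0.14, adjusted p = 0.0124). Without 10 nm replicate 3 or 500 nm replicate 2 it was lost too (adjusted p = 0.079 and 0.0775). The dimmer probe set of Dnajb1 gave 0.86 ± 0.29 and did not pass (adjusted p = 0.191). Dnajb9, a cochaperone of the endoplasmic reticulum, was the 1 of 23 unfolded protein response genes, at 8.97, 9.0 and 9.14 against 8.46, 8.22 and 8.33 (0.70 ± 0.13, adjusted p = 0.00347).

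On the lower side the gene furthest below was Slc40a1, which encodes ferroportin, the exporter of cellular iron. It read 6.58, 6.39 and 6.76 with 10 nm silica, 8.13, 8.07 and 8.42 with 500 nm silica and 6.18, 6.12 and 7.01 untreated. The 10 nm arrays lay within the untreated range and the 500 nm arrays above both, 3.1-fold above 10 nm (10 nm minus 500 nm, -1.63 ± 0.21 log2, adjusted p = 0.000122). A further probe set gave -1.26 ± 0.19. It was the 1 lower member of the metal response list. Slc7a11, the cystine importer that feeds glutathione synthesis, was also highest with 500 nm silica. Its levels were 7.67, 7.65 and 7.55 with 10 nm silica, 8.47, 8.83 and 8.46 with 500 nm silica and 7.28, 7.23 and 7.30 untreated (-0.96 ± 0.13, 1.95-fold, adjusted p = 0.00021). Here the 10 nm arrays lay above the untreated ones, and no 2 groups overlapped.

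Slc7a11 was 1 of 3 lower members among 31 integrated stress response genes, of which 0 were higher (median -0.033, which turned to 0.0041 when the arrays were scaled to one SD). Ddit3 read 8.50, 8.49 and 8.24 with 10 nm silica, 9.16, 9.16 and 9.12 with 500 nm silica and 7.68, 7.76 and 7.58 untreated. Both sizes lay above untreated cells, and the 500 nm arrays were 1.67-fold above the 10 nm ones (-0.74 ± 0.12, adjusted p = 0.00113). Ddit4, an inhibitor of growth signalling through mTOR, gave -0.52 ± 0.12 (adjusted p = 0.0315) and kept its call only without 500 nm replicate 1, with adjusted p = 0.0634 to 0.173 in the other 5 fits. Atf4 itself gave -0.06 ± 0.20, Trib3 -0.41 ± 0.14 (adjusted p = 0.169) and Ppp1r15a 0.50 ± 0.19 (adjusted p = 0.303). Among 21 NRF2 antioxidant genes, Slc7a11 was again the 1 lower member and 0 were higher (median -0.097), where 1.11% of all genes were lower. Hmox1, which breaks down haem, stood 1.37 log2 above untreated cells with 10 nm and 1.56 with 500 nm silica (difference -0.19 ± 0.31, adjusted p = 1.0).

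The sterol synthesis genes had the lowest median of the 24 lists, -0.31, and 17 of their 19 differences were negative, while 2 passed. The median was -0.28 to -0.32 under the other scalings and without replicate 3. Fdft1, the squalene synthase, read 8.94, 9.11 and 9.13 with 10 nm silica, 9.71, 9.64 and 9.68 with 500 nm silica and 8.77, 8.82 and 9.29 untreated (-0.61 ± 0.13, adjusted p = 0.0161). The 10 nm arrays again overlapped the untreated ones. That call held only without 10 nm replicate 2 or 3 (adjusted p = 0.051 to 0.102 in the other 4 fits), and 3 more probe sets gave -0.46 to -0.01 and did not pass. Nsdhl, a sterol dehydrogenase, gave -0.30 ± 0.08 (adjusted p = 0.0407) and lost its call with any 1 of the 6 arrays left out (adjusted p = 0.086 to 0.186). The list therefore had 0 called members without 10 nm replicate 1 or any of the 500 nm arrays and 1 without 10 nm replicate 2 or 3. Against untreated cells its median was 0.12 with 10 nm and 0.45 with 500 nm silica.

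Of the 19 LXR and fatty acid synthesis genes, 1 was higher (Plin2) and 2 were lower. Scd2, a desaturase that makes unsaturated fatty acids, read 11.24, 11.27 and 11.21 against 11.86, 11.76 and 11.81 (-0.57 ± 0.08, adjusted p = 0.000374), below untreated arrays at 12.03, 11.99 and 12.05. Dimmer probe sets of Scd2 gave -0.55 ± 0.42 and -0.31 ± 0.22, and neither passed (adjusted p = 0.929 and 0.898). The related Scd1 gave -0.73 ± 0.13 (adjusted p = 0.00451). Cd200r1, a receptor that inhibits myeloid cells, read 6.50, 6.57 and 6.53 with 10 nm silica, 7.54, 7.68 and 7.62 with 500 nm silica and 7.64, 7.43 and 7.41 untreated. Here the 10 nm arrays stood alone (-1.08 ± 0.14, 2.12-fold, adjusted p = 0.00021). Wtap, a subunit of the enzyme that methylates adenosine in RNA, had the same layout, with 9.0, 9.13 and 9.10 against 10.13, 9.89 and 10.01 and untreated arrays at 9.97, 9.85 and 10.32 (-0.94 ± 0.12, adjusted p = 0.000111). A second probe set of Wtap gave -0.16 ± 0.26.

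The zinc finger genes Zfp958, Zfp61 and Zfp810 were, like Gfi1, among the 14 furthest below. The 14 furthest above held the zinc finger genes Egr2 and Klf2 and the nuclear receptor genes Nr4a1 and Nr4a2, whose products also carry zinc fingers. The share of zinc finger genes over all genes was not counted. Zfp958 read 6.16, 6.49 and 5.92 against 7.41, 7.59 and 7.45 (-1.30 ± 0.16, adjusted p = 9.85e-05). Zfp61 gave -1.01 ± 0.16 and Zfp810 -0.88 ± 0.17. For Zfp958 and Zfp61 both sizes lay below the untreated arrays. Pde4b, an enzyme that degrades the messenger cyclic AMP, read 5.13, 4.84 and 4.93 with 10 nm silica, 5.73, 5.79 and 5.97 with 500 nm silica and 6.55, 6.79 and 6.51 untreated (-0.86 ± 0.15, adjusted p = 0.00314). That call was lost without replicate 3 of every group (-0.78, adjusted p = 0.0606). Tent5c, a poly(A) polymerase, was raised by both sizes and less by 10 nm silica (-0.88 ± 0.17, adjusted p = 0.00534). Pacc1, a chloride channel opened by acid, gave -1.0 ± 0.15 (adjusted p = 0.000707). Its other 4 probe sets gave -1.40 to -0.12, of which only that at -1.40 passed. The mitotic kinesin gene Kif18a (-0.88 ± 0.20) kept its call only without 500 nm replicate 1 (adjusted p = 0.0559 to 0.138 in the other 5 fits), and 4632415L05Rik (-1.0 ± 0.23) lost it with any 1 array left out (0.0524 to 0.106).

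In 6 of the 24 lists 0 members passed limma's test. Of all 12393 genes 2.35% passed in either direction, so 0 calls in lists of this length is near the overall share. These were the interferon-stimulated (29 measured), lysosome (27), S phase (29), mitotic (29), oxidative phosphorylation (29) and ribosomal protein genes (19), with medians between -0.080 and 0.066. The members with the smallest p were Ifit2 (-0.49 ± 0.16, adjusted p = 0.151), the cathepsin gene Ctsl (0.50 ± 0.17, adjusted p = 0.192), Rfc4 (-0.23 ± 0.09, adjusted p = 0.307), Mki67 (0.33 ± 0.09, adjusted p = 0.0902), Ndufb5 (-0.22 ± 0.12, adjusted p = 0.707) and Rpl14 (-0.22 ± 0.14, adjusted p = 0.823). Of these 6, Mki67 (a marker of dividing cells), Ctsl, Rfc4 and Ndufb5 passed under at least 1 alternative. Of all 22626 probe sets, 2095 had an unadjusted p under 0.05 in this contrast.

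Against untreated cells, 2089 probe sets (9.23%) passed with 10 nm silica at the mid dose and 565 (2.5%) with 500 nm silica. With 1 array left out the first count was 1367 to 1939, the lowest without 10 nm replicate 1. The second was 491 and 470 without untreated replicates 1 and 2, 365 without untreated replicate 3 (the array with the index of 1.15), and 328, 388 and 349 without 500 nm replicates 1, 2 and 3. These comparisons share the untreated arrays and are set side by side only. The 294 probe sets higher with 10 nm silica lay at a median of 0.87 log2 above untreated cells with 10 nm silica and 0.085 with 500 nm silica. The 198 lower ones lay at -0.80 and -0.18. The genes described fell into 3 main layouts. Egr2, Nr4a1, Ccl2, Olr1 and Cd200r1 left the untreated level with 10 nm silica and did not pass with 500 nm silica. Dusp1, Ccl4, Ier3, Gadd45b, Gfi1 and Sesn1 passed with both sizes in one direction and went further with 10 nm silica. Slc40a1 (0.14 ± 0.21 with 10 nm and 1.77 ± 0.21 with 500 nm silica), Slc7a11 (0.35 ± 0.13 and 1.32 ± 0.13) and Fdft1 (0.10 ± 0.13 and 0.72 ± 0.13) passed with 500 nm silica alone.

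The size difference was then followed at the low and high doses, on arrays that the mid dose contrast did not use. Of the 294 probe sets higher with 10 nm silica at the mid doses, 237 were on the same side at the low and 268 at the high doses, where 12015 and 11107 of all 22626 were positive. Their median difference was 0.17 at the low, 0.77 at the mid and 0.71 at the high doses. Of the 198 lower ones, 126 and 173 were negative at the low and high doses, where 10611 and 11519 of all 22626 were negative. Their medians were -0.066 at the low, -0.59 at the mid and -0.42 at the high doses. The contrast between the size difference at the mid and at the low doses, where nominal area was equal, passed for 81 probe sets (0.358%), and for 48 to 70 with 1 of the 12 arrays left out. The count was 53, 54 and 70 without low 10 nm replicates 1, 2 and 3, 53, 53 and 48 without low 500 nm replicates, 58, 54 and 54 without mid 10 nm replicates and 50, 55 and 61 without mid 500 nm replicates, in that order. Between the mid and high doses it passed for 58 (0.256%). That count was 36, 35 and 45 without mid 10 nm replicates 1, 2 and 3, 34, 39 and 32 without mid 500 nm replicates, 55, 42 and 58 without high 10 nm replicates and 38, 43 and 49 without high 500 nm replicates. Each contrast given next with an adjusted p under 0.05 passed in all 12 such fits. At the high doses themselves, 1520 probe sets (6.72%) passed between the sizes.

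**Figure D4:**
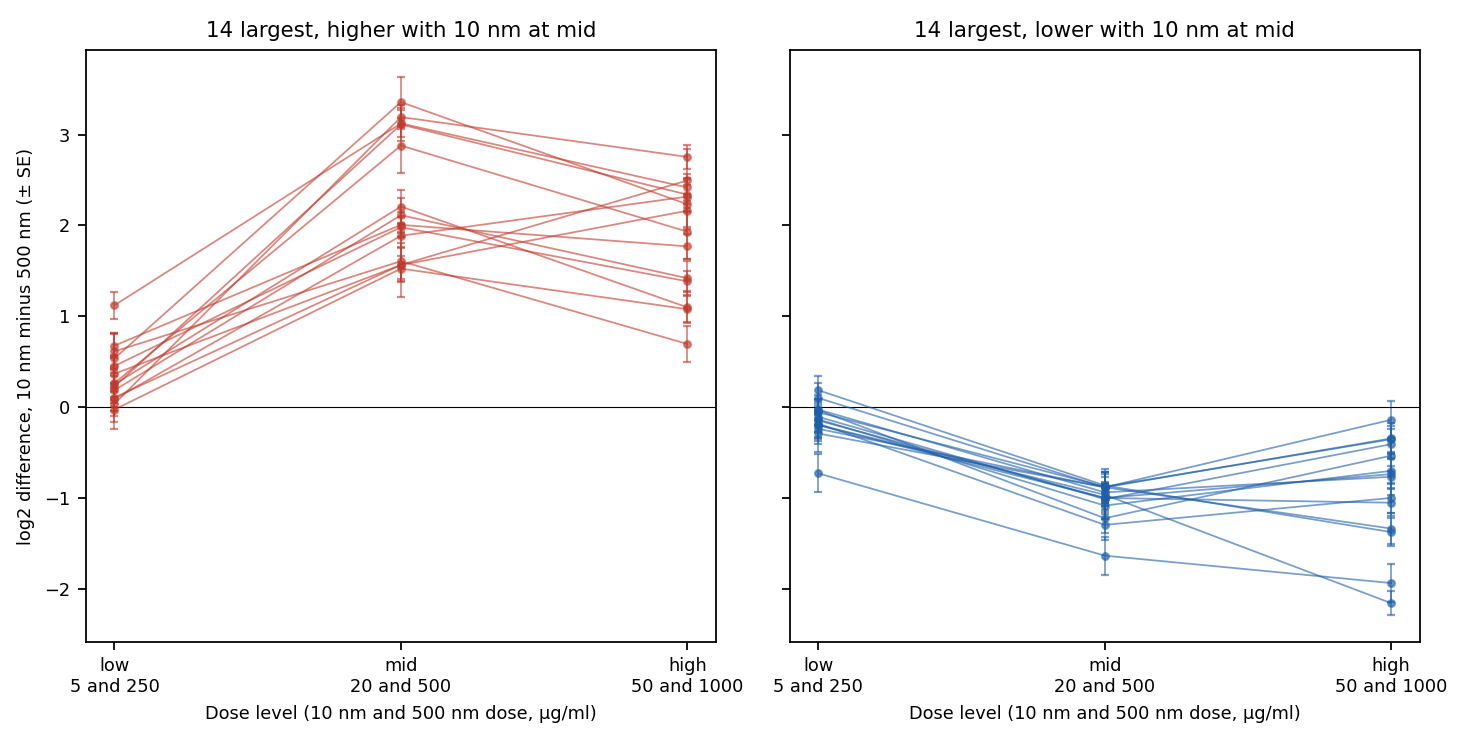
Log2 difference between 10 nm and 500 nm silica (y axis, ± SE, 3 arrays per group) at the low, mid and high dose pairs (x axis, µg/ml) for the 14 genes furthest above (left) and the 14 furthest below (right) at the mid doses. The left lines lie between -0.03 and 1.12 at the low doses and stay above 0 at the high doses, and the right lines lie below 0 at the mid and high doses.

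Klf2 was among the genes that passed between the mid and low doses. At the low doses its means were 6.85 with 10 nm and 6.81 with 500 nm silica, at the mid doses 10.45 and 7.26 and at the high doses 10.30 and 7.55. The size difference thus went from 0.04 to 3.19 and 2.75 log2, and the mid minus low contrast was 3.16 (adjusted p = 1.95e-08). Nr4a1 (2.88, adjusted p = 8.45e-06), Rhob (2.82, adjusted p = 0.00125), Ccl2 (2.61, adjusted p = 0.0057) and Egr2 (2.00, adjusted p = 6.43e-05) also differed more at the mid doses. Hbegf did not pass. Its size difference was 1.45 at the low doses and 1.5 at the mid doses, a contrast of 0.06 (adjusted p = 1.0).

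Between the mid and high doses the size difference shrank for Dusp1 and Ccl4. Dusp1 stood at 10.87 with 10 nm and 10.03 with 500 nm silica at the mid doses and at 11.11 and 11.25 at the high doses. The mid minus high contrast was 0.97 (adjusted p = 0.00264). Ccl4 went from 1.29 to 0.19 (contrast 1.09, adjusted p = 0.00659). Gadd45b crossed over. It was higher with 10 nm silica at the mid doses (0.60) and lower at the high doses (-0.82 ± 0.12, adjusted p = 0.000258), where 500 nm silica brought it to 10.13 and 10 nm silica to 9.31 (contrast 1.42, adjusted p = 0.000678). Slc7a11 kept its side and spread further, from -0.96 to -2.16 (contrast 1.19, adjusted p = 0.00601), as the 500 nm mean went from 8.59 to 9.39 and the 10 nm mean from 7.62 to 7.23. H1f2, a linker histone gene, went from -0.65 to -2.07 (contrast 1.42, adjusted p = 0.000371). Acod1, which makes itaconate, did not pass between sizes at the mid doses (-0.16 ± 0.10, adjusted p = 0.812) and was lower with 10 nm silica at the high doses (-1.61 ± 0.10, adjusted p = 6.51e-09). Nr4a2 gave a contrast of -0.43 (adjusted p = 0.66), from 1.89 to 2.32.

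**Figure D5:**
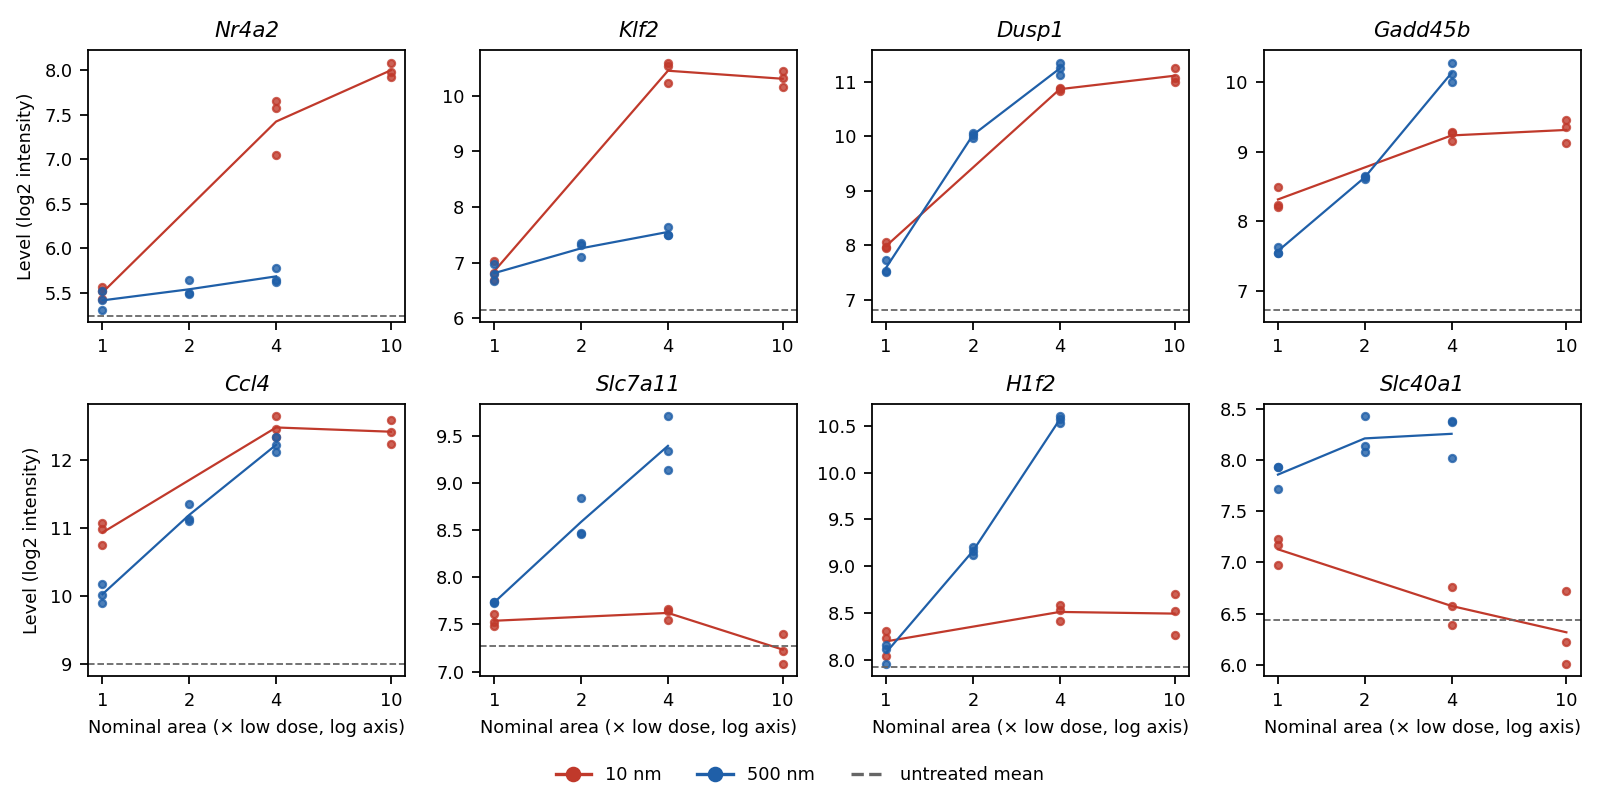
Log2 intensity of 8 genes on each array (points) and group means (lines) against nominal surface area in multiples of the low dose (x axis, log scale) for 10 nm (red) and 500 nm silica (blue). The dashed line is the untreated mean. At 4 times the low dose Nr4a2 and Klf2 are separated by size, Ccl4 is nearly not, and Slc7a11, H1f2 and Slc40a1 are higher with 500 nm silica.

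At its mid dose 10 nm silica had the nominal area of 500 nm silica at its high dose, 4 times that of the low doses, and their means are given side by side without a test. Nr4a2 stood at 7.43 with 10 nm and 5.68 with 500 nm silica, Klf2 at 10.45 and 7.55, and Egr2 at 11.34 and 9.34. Dusp1 stood at 10.87 and 11.25 and Ccl4 at 12.48 and 12.22. Slc7a11 stood at 7.62 and 9.39, and Slc40a1 at 6.58 and 8.25. Nr4a2, Klf2 and Egr2 were thus on the 10 nm side, and Slc7a11 and Slc40a1 on the 500 nm side. Dusp1 and Ccl4 were less far apart, Dusp1 higher with 500 nm and Ccl4 higher with 10 nm silica. Not every transcription factor gene lay on the 10 nm side, with Ddit3 at 8.41 and 9.69 and Gfi1 at 4.44 and 5.02.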

How the data were processed

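Messenger RNA was measured on Affymetrix arrays in 7 groups of 3 samples, and the groups and replicate numbers were taken from the sample titles. The authors deposited log10 values from RMA, per the submitters' processing notes, with each probe set given 1 value on an array. No version of it is given in the sources used here. This method makes arrays comparable by forcing their intensities to like distributions, so a shift shared by most genes would not be seen. The values lay between 0.641 and 4.34, from which the log base was taken: at base 10 the brightest probe set has 22019 intensity units, at base 2 only 20.3. Arrays have no read depth, and their number limits the precision.

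Values were multiplied by 3.32193 to give log2 and fitted in limma 3.58.1 (R 4.3.3) with the group as the only term over all 21 arrays (14 residual degrees of freedom, median residual SD 0.19), with no filter on low values. P-values were adjusted with Benjamini and Hochberg's method over 22626 probe sets, and an adjusted p under 0.05 was called. Rank tests on single values were not used, since 3 against 3 arrays cannot go below an exact two-sided p of 0.1. The fit was tested on simulated data. Plots were made in Python 3.11.15 with pandas 2.3.3 and matplotlib 3.10.9.

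Of 22690 probe sets 64 were controls, 20380 had 1 gene symbol in the platform annotation, 691 several and 1555 none. Of those with 1 symbol, 20351 matched a current gene ID, and 0 symbols changed. Each of 12393 genes was represented by its brightest probe set over the 21 arrays. Of 634 genes planned in 24 lists, 572 were measured, and 22 stood in several lists. The genes described are the 14 called genes furthest in each direction whose sizes did not overlap and, from each list, up to 3 called members with the largest difference or, where 0 were called, the member with the smallest p. To these come the 3 called genes with the smallest p in each contrast between dose levels, which completes the naming rule (66 genes). Genes said to be named after their values were seen stand outside that rule. The comparison and its lists were chosen with earlier results of these data known. Alternatives tried were a replicate block, quantile normalization, centring, scaling, array weights, the compared groups alone, no dim probe sets, 1 probe set per gene, a trended robust prior, base 2, and leaving out arrays.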

Additional observations from a re-analysis of the deposited data

Results flagged for a closer look

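Listed here are genes among the 66 that the naming rule took. For them the size difference (10 nm minus 500 nm silica) at the mid doses itself differed from that at another dose level. The threshold was an adjusted p under 0.05 by limma's test across all probe sets. The rule took 3 genes per contrast because they passed it, and the others by their mid dose difference, which is part of the contrast. The counts of genes that passed are therefore no test. With the other list members called at the mid doses added, 10 of 92 genes passed against the high doses, beside 58 of all 22626 probe sets (0.256%). Of the 66 genes, 8 passed. The contrast was 1.45 log2 for Acod1, 1.42 for Gadd45b, 1.42 for H1f2, 1.19 for Slc7a11, 1.09 for Ccl4, 0.97 for Dusp1, 0.96 for Ier3 and 0.82 for Sertad1, so all 8 lay further toward the 10 nm side at the mid doses. For Ier3 the call was lost in 10 of 12 fits that left out 1 array, and for Sertad1 in 3.

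Against the low doses 24 of the 92 genes passed, beside 81 of all 22626 probe sets (0.358%). Of the 66 genes, 21 passed. Of these, 14 gave positive contrasts, with 3.16 for Klf2, 2.88 for Nr4a1, 2.82 for Rhob, 2.00 for Egr2, 1.80 for Nr4a2, 1.33 for Arc and 0.92 for Ier3, and with 2.61 for Ccl2, 1.96 for Rcan1, 1.93 for Olr1, 1.55 for Emp1, 1.53 for Ndrg1, 1.2 for Lif and 0.72 for Plin2. The other 7 were negative, at -1.19 for Gfi1, -1.11 for Zfp958, -1.05 for Pde4b, -0.95 for Scd1, -0.93 for Ddit3, -0.91 for Wtap and -0.77 for H1f2. With 1 of 12 arrays left out, the call was lost in 12 fits for Pde4b, 11 for H1f2 and for Ier3, 10 for Gfi1 and for Zfp958, 9 for Lif, 7 for Scd1, 5 for Wtap and 2 for Ddit3. The other 12 kept it in all 12 fits.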

How the results depend on the processing

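Of 59 called genes that the naming rule took, 40 kept their call under every alternative that left their probe set in. Under at least 1 alternative 19 lost it, and 0 reversed. With the other called list members added, 26 of 85 called genes lost their call in at least 1 of the 6 fits without 1 mid dose array. The other alternatives were not followed for those added members. Of 384 recomputed list medians, 0 moved by more than the median residual SD. Same-numbered mid dose arrays did not deviate together in every pair (correlations -0.29, 0.64 and 0.71 for numbers 1, 2 and 3, and number 1 did not correlate best with itself), so the numbers were not taken as pairs. With the replicate block the count of calls was 888 in place of 492 (479 higher and 409 lower), 3577 and 1141 for 10 nm and 500 nm silica against untreated cells, and 205 and 155 for the mid minus high and mid minus low contrasts. Array weights gave 2829 calls, of which 1170 were higher and 1659 lower, so that most calls then lay on the lower side, and 4658, 3878, 3364 and 1080 for the other contrasts in that order. With only the groups compared there were 278 calls (192 higher and 86 lower), 809 and 128 against untreated cells, and 13 for mid minus high. With 1 probe set per gene there were 317 calls (162 higher, 47 at least 2-fold), 1315 and 343 against untreated cells, and 37 and 39, with fewer features tested. The mid minus high count was 96 after quantile normalization and 89 without the dimmest 33.3% of probe sets. Read as log2, the deposited values gave 2 calls of at least 2-fold in place of 95. With 1 array left out the count of calls was 281 to 331, higher 192 to 221, lower 77 to 130, at least 2-fold 88 to 96, against untreated cells 1367 to 1939 and 328 to 491, and for the mid minus high and mid minus low contrasts 32 to 58 and 48 to 70. The causes were not tested. Without replicate 3 of every group the count of calls was 417 (253 higher and 164 lower). Of the 59 genes, 10 then lost their call (Malat1, Gadd45b, Kdm3a, Nsdhl, Bid, Birc3, Ddit4, Pde4b, Kif18a and 4632415L05Rik). With only the groups compared 9 did (Plaur, Bbc3, Rhoc, Kdm3a, Nsdhl, Bid, Birc3, Ddit4 and Scd1), and after scaling to one SD 5 (Dusp2, Dnajb1, Nsdhl, Bid and Fdft1). Of 7 genes that the naming rule took and that were not called, 4 passed under an alternative. These were Mki67 (replicate block, quantile normalization, array weights), Ctsl (replicate block, scaling to one SD, array weights, without replicate 3), and Rfc4 and Ndufb5 (array weights). The LXR, heat shock, integrated stress response, mitotic and ribosomal protein lists had medians near 0 whose sign turned under at least 1 scaling or without replicate 3. The number of arrays, 3 per group, limits the precision.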
